A study of Mus musculus with 36 samples.

Results

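The tumour suppressor gene Trp53, which encodes p53, and 5 genes of its feedback circuit, Mdm2, Mdm4, Cdkn1a, Ccng1 and Bbc3, were followed through the P-body, cytoplasm, polysome and total RNA libraries of a mouse series. The 6 genes were chosen by symbol from 50216 symbols over the 3 count tables, by a rule that uses no measured value but was set with earlier results of these data known, and all 6 had a row in every table and passed the filter on low counts in every comparison. RNA was sequenced from 36 samples in 16 groups, with 2 libraries per group for P-bodies and cytoplasm and 3 per group for polysome-bound and total RNA. P-bodies, cytoplasmic condensates that hold untranslated mRNA together with proteins such as DDX6 and LSM14A, were sorted as fluorescent particles from cells that carried GFP-LSM14A under the EF1a promoter, and the cytoplasm was the fraction before the sort.

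Naive and primed embryonic stem (ES) cells were the v6.5 line, which derives from a C57BL/6 by 129S4Sv/Jae cross. Naive cells were held in N2B27 with PD0325901, CHIR99021 and LIF, and primed cells in activin A, bFGF and knockout serum replacement. Mouse embryonic fibroblasts (MEFs) carried doxycycline-inducible Oct4, Klf4, Sox2 and Myc at Col1a1, the M2-rtTA transactivator at Rosa26 and a Pou5f1-EGFP reporter, and were taken untreated or at day 3 of induction with a control or a Nudt21 short hairpin RNA. Ago2 knockout (KO) ES cells were single-cell clones made with paired CRISPR cuts, and their libraries stood in a count table of their own, without wild-type libraries. The DDX6 degron ES cells were a clone homozygous for an FKBP12(F36V) tag at Ddx6, in which dTAG-13 removes the tagged protein, and were harvested hours after dTAG-13 was added. Control ES cells of the same experiment were harvested alongside them. The paper's legends describe treated and control cells alike as naive ES cells that carry the tag and GFP-LSM14A, with the control left untreated (DMSO). The paper describes the replicates of its sequencing assays as biological, and the labels do not say what a replicate number marks across fractions. P-values measured the spread between these libraries.

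p53 is a transcription factor that is stabilised after DNA damage and other stresses and then switches on genes for cell cycle arrest, repair and apoptosis. Among these are Mdm2, a ubiquitin ligase that marks p53 for destruction, Cdkn1a (p21), an inhibitor of cyclin-dependent kinases, Ccng1 (cyclin G1), which brings a protein phosphatase to MDM2, and Bbc3 (PUMA), a BCL-2 family protein that starts apoptosis. MDM4 resembles MDM2, binds the activation domain of p53 and holds back its activity. ES cells are known for rapid cycling and a brief G1 phase, in which low p21 and the miR-290 family of microRNAs are involved.

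In the mm10 build and GENCODE M21 annotation, Trp53 lies on chromosome 11 at chr11:69580359-69591873 on the plus strand and Mdm2 on chromosome 10 at chr10:117688875-117710758 on the minus strand. Mdm4 lies at chr1:132959484-133030561 on the minus strand, Cdkn1a at chr17:29090976-29100727 on the plus strand, Ccng1 at chr11:40748552-40755311 on the minus strand and Bbc3 at chr7:16308393-16318205 on the plus strand. The longest coding transcript of each gene differed widely in GC content. Ccng1 was the most AU-rich at 40.8% GC, followed by Mdm4 at 43.3% and Mdm2 at 46.2%, against a median of 49.17% over 20964 genes. Trp53 and Cdkn1a stood at 54% and 54.4%, and Bbc3 at 65.2% was at the 99.6th percentile. Mdm4 had the longest transcript, with 7105 bases of which 5436 were 3' untranslated region (UTR), and Bbc3 the shortest with 1814 bases.

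The 3' UTRs of the 6 genes were searched for the exact complement of bases 2 to 8, the seed, of 4 microRNAs of ES cells or of the p53 circuit. The matches are shown because the fractions and the Ago2 KO cells bear on microRNA targets, and a match is a description of the sequence, not a site in use. Mature sequences are from RefSeq on GRCm38.p6, with the seed in capitals. UTR stretches are given 5' to 3' on the strand of the gene, with the seed complement in capitals.
miR-294-3p: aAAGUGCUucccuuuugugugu
let-7a-5p: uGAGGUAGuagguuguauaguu
miR-34a-5p: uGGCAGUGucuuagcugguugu
miR-125b-5p: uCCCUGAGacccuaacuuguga
Cdkn1a, first match to miR-294-3p: cagacctgaatAGCACTTtggaaaaa
Cdkn1a, next match to miR-294-3p: gtgggtgtcaaAGCACTTagtgggtc
Ccng1, match to miR-294-3p: gttactgaaatAGCACTTctttaaat
Ccng1, match to miR-125b-5p: ataggcagcagCTCAGGGccctggac
Mdm4, match to let-7a-5p: gctacccgtttCTACCTCagtttgat
Mdm4, match to miR-34a-5p: gtggaattttgCACTGCCatagggaa

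Coordinates of matches are those of the whole printed stretch, not of the heptamer alone. Cdkn1a held 2 matches to the miR-294-3p seed, at chr17:29099817-29099842 and chr17:29100489-29100514, and Ccng1 held 1, at chr11:40750545-40750570, where 14.4% of all 20964 3' UTRs hold at least 1. The Ccng1 match to miR-125b-5p was at chr11:40748820-40748845, and 13% of all 3' UTRs hold that heptamer. Mdm4 had 1 match each to let-7a-5p, at chr1:132986828-132986853, and to miR-34a-5p, whose host gene is a known p53 target, at chr1:132988098-132988123. The shares of all 3' UTRs with these were 8.85% and 14.1%. Trp53, Mdm2 and Bbc3 held none of the 4 heptamers in the transcript searched. The AU-rich pentamer ATTTA, found in 64.7% of all 3' UTRs on the transcribed strand, occurred 11 times in Mdm4, 8 times each in Mdm2 and Ccng1, 4 times in Cdkn1a, once in Trp53 and not in Bbc3. Per kilobase of 3' UTR the order was another, with 5.99 in Mdm2, 3.45 in Ccng1, 3 in Cdkn1a, 2.02 in Mdm4 and 1.77 in Trp53.

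The libraries held 6769731 to 12772246 assigned reads in the ES cell fractions, 19384742 to 31185874 in the MEF and day 3 fractions, 13308782 to 29362195 in the polysome table and 15624401 to 17486268 in the Ago2 KO table. In each of the 24 pairs of replicates the counts differed beyond sampling noise. The Ago2 KO cytoplasm pair stood furthest apart, with a Spearman correlation across genes of 0.906, and the day 3 control P-body pair and the naive cytoplasm pair followed among the fractions, at 0.969 and 0.973. Nudt21 was at 4.87 to 5.94 CPM (read counts scaled by library size) in the 4 knockdown libraries and at 88.9 to 110 CPM in the 4 day 3 control libraries. Ago2 was at 2.54 to 4.83 CPM in the 4 KO libraries. The degron acts on protein, so Ddx6 RNA does not check that label. Pluripotency markers summed to 4233 to 7387 CPM in naive ES cells and to 0.465 to 1.65 CPM in MEFs, where 9 fibroblast markers summed to 12232 to 44884 CPM. In MEF P-bodies 7 lung epithelial markers summed to 6.97 CPM in replicate 1 and 97.3 CPM in replicate 2, with 5 of the 5 tested higher, and all 7 were at 0 in the MEF cytoplasm. In bulk RNA, fewer cells of a type and less RNA per cell cannot be told apart.

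The 6 genes differed in level and in the cell types that held most of them. Genes were compared on the scale of cytoplasmic CPM per kilobase of the longest coding transcript. Trp53 led in naive ES cells at 228 ± 18.7 (SD, n = 2), ahead of Cdkn1a at 70.1 ± 16.9 and Mdm2 at 53.3 ± 10.6. Ccng1 followed at 39.3 ± 14.5, and Mdm4 at 7.20 ± 0.146 and Bbc3 at 5.91 ± 0.997 came last. The gaps between Cdkn1a, Mdm2 and Ccng1 were no larger than the SD of the higher gene or its neighbour, and Mdm4 and Bbc3 differed by little more than the SD of Bbc3. The isoforms in use were not measured, and the order also depends on the libraries. In total RNA of control ES cells, Mdm4 was at 43.3 to 55.6 and Mdm2 at 49.7 to 59.6 on this scale. In MEFs the order was another, with Ccng1 at 280 ± 14.4 and Cdkn1a at 252 ± 1.14 ahead of Mdm2 at 91.4 ± 3.49 and Trp53 at 61.1 ± 0.665, and with Mdm4 at 15.9 ± 0.433 above Bbc3 at 9.37 ± 0.117.

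**Figure D1:**
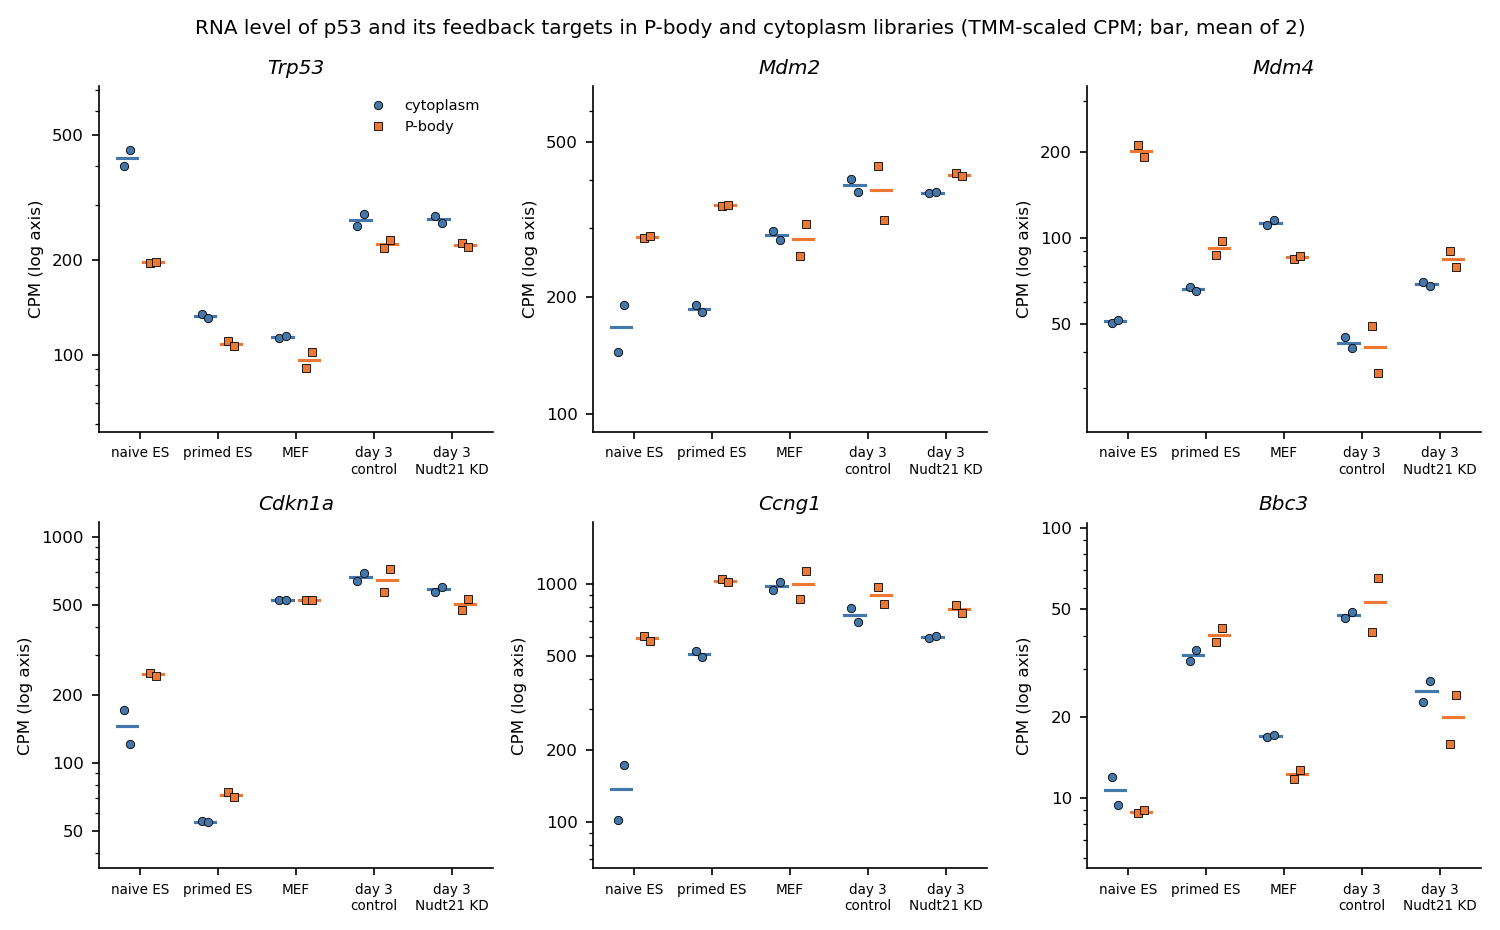
TMM-scaled CPM on a log axis of each gene in the 10 groups of the P-body and cytoplasm table. Circles are cytoplasm libraries, squares P-body libraries and bars the mean of 2. In naive ES cells the P-body libraries of Mdm4 and Ccng1 lie far above, and those of Trp53 far below, the cytoplasm libraries.

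The cytoplasm of naive and primed ES cells was compared first, to set the level of each gene in the fraction that was sorted. This fraction is a resuspended pellet that still holds the P-bodies. It is not total RNA, so level and localization cannot be told apart in it. Trp53 was at 400.1 and 449 CPM in the naive cytoplasm and at 135 and 131 CPM in the primed cytoplasm. Its log2 (FC) was 1.67 ± 0.12 (SE, adjusted P = 0.000425). Cdkn1a was likewise higher in naive cells, at 171 and 121 CPM against 55.1 and 54.6 CPM (log2 (FC) 1.40 ± 0.19, adjusted P = 0.00274). The p53 gene and its arrest target thus moved together, whereas Ccng1 and Bbc3 went the opposite way. Ccng1 was at 102 and 174 CPM in naive and 525 and 492 CPM in primed cytoplasm (log2 (FC) −1.89 ± 0.25, adjusted P = 0.00272). Bbc3 was at 12 and 9.45 CPM against 32.2 and 35.5 CPM (log2 (FC) −1.67 ± 0.20, adjusted P = 0.00194). The apoptosis gene rested on 153 and 123 reads in the naive cytoplasm, the fewest of the 6. Mdm4 was lower in naive cells by a small margin, at 50.4 and 51.9 CPM against 67.4 and 65.5 CPM (log2 (FC) −0.39 ± 0.13, adjusted P = 0.0497). That call was lost with DESeq2 (adjusted P = 0.113), without the filter on low counts (adjusted P = 0.0732) and without primed cytoplasm replicate 1 or 2 (adjusted P = 0.308 and 0.237). Mdm2 was at 144 and 191 CPM in naive and 190.4 and 183 CPM in primed cytoplasm, which overlapped, with a log2 (FC) of −0.17 ± 0.16 (adjusted P = 0.427). Without naive cytoplasm replicate 2 it passed the threshold, at −0.40. In all, 5 of the 6 genes were called, where 43.8% of 16125 genes were called. That count of 7056 genes was 2242 and 2612 without primed cytoplasm replicate 1 and 2.

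Against MEFs, naive ES cells had more cytoplasmic Trp53 and less of all 5 others. Trp53 was at 113 and 115 CPM in the MEF cytoplasm (log2 (FC) naive over MEF 1.90 ± 0.11, adjusted P = 0.000109). Ccng1 reached 949 and 1020.5 CPM in MEFs (log2 (FC) −2.83 ± 0.27, adjusted P = 0.00048) and Cdkn1a 523 and 526 CPM (log2 (FC) −1.85 ± 0.19, adjusted P = 0.000545). Mdm4 was at 111 and 115 CPM, Mdm2 at 295 and 279.8 CPM and Bbc3 at 16.8 and 17.1 CPM in MEFs. Their log2 (FC) values were −1.14 ± 0.10, −0.78 ± 0.16 and −0.66 ± 0.20 (adjusted P = 0.000391, 0.00775 and 0.0272). All 6 genes were called, where 71.8% of 16871 genes were called. Bbc3 was not called with DESeq2 (adjusted P = 0.0502) or without MEF cytoplasm replicate 1 or 2 (adjusted P = 0.173 and 0.189), and Mdm2 not without MEF cytoplasm replicate 1 (adjusted P = 0.0591). The ES cell libraries were also the shallower ones, and depth and cell type cannot be told apart here.

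At day 3 of reprogramming all 6 genes differed from MEFs in the cytoplasm, where 69.3% of 16108 genes were called. Trp53 rose to 257 and 282 CPM (log2 (FC) 1.30 ± 0.06, adjusted P = 4.87e-11) and Bbc3 to 46.4 and 48.9 CPM (log2 (FC) 1.55 ± 0.10, adjusted P = 7.57e-10). Mdm2 rose to 401 and 372 CPM and Cdkn1a to 634 and 689 CPM, with log2 (FC) values of 0.48 ± 0.06 and 0.39 ± 0.06 (adjusted P = 2.07e-06 and 1.19e-05). Thus the RNAs of p53, its ubiquitin ligase Mdm2 and the targets Cdkn1a and Bbc3 were higher at day 3, whereas the target Ccng1 was lower. Mdm4, the other inhibitor, fell to 45.0 and 41.4 CPM (log2 (FC) −1.33 ± 0.07, adjusted P = 1.92e-10). Ccng1 fell to 793 and 691 CPM (log2 (FC) −0.35 ± 0.06, adjusted P = 0.000164), a call that was lost when all groups were fitted together (adjusted P = 0.0582). Day 3 cells were also in an induction medium with LIF, ascorbic acid and doxycycline, so medium and induced factors cannot be told apart here. Whether the untreated MEFs carried a control hairpin is not stated.

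Knockdown of Nudt21, a cleavage factor that sets the choice of polyadenylation site, changed 4 of the 6 genes in the day 3 cytoplasm, where 49.6% of 15990 genes were called. Mdm4 was at 70.0 and 67.8 CPM with the knockdown and higher than in the control (log2 (FC) 0.68 ± 0.08, adjusted P = 3.54e-06). Bbc3 was at 22.7 and 27.0 CPM and lower (log2 (FC) −0.94 ± 0.11, adjusted P = 1.44e-06). The 2 genes moved in opposite directions, and for both the knockdown libraries stood apart from the control libraries, where 74% of all genes did not overlap. This comparison and that with MEFs share the day 3 control libraries. Ccng1 was at 592 and 608 CPM (log2 (FC) −0.30 ± 0.07, adjusted P = 0.000955) and Cdkn1a at 568 and 599 CPM (log2 (FC) −0.18 ± 0.06, adjusted P = 0.0244). Both of these calls were lost when all groups were fitted together (adjusted P = 0.216 and 0.362). Ccng1 moved to −0.20 without control cytoplasm replicate 1 (adjusted P = 0.0501). Cdkn1a moved to −0.12 without control cytoplasm replicate 2 or knockdown cytoplasm replicate 1 (adjusted P = 0.289 and 0.0708). Trp53, at 277 and 264 CPM, and Mdm2, at 370.1 and 371 CPM, had log2 (FC) values of 0.01 ± 0.06 and −0.06 ± 0.06 (adjusted P = 0.916 and 0.472).

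P-body and cytoplasm were then compared within each cell type, to ask which of these RNAs are held in P-bodies. In naive ES cells, Mdm4 and Ccng1 were strongly and Mdm2 and Cdkn1a moderately P-body-enriched, and Trp53 was P-body-depleted. The call count was 5 of 6, where 38% of 15630 genes were called. Of the 5, 4 were higher and 1 lower in P-bodies, where 22.6% of all genes were higher and 15.4% lower. Libraries of the fractions did not overlap for 73.4% of all genes. The count over all genes, 5941, was 2056 and 2079 without naive P-body replicate 1 and 2, and 9546 and 10018 without naive cytoplasm replicate 1 and 2. The same 5 genes were called in the same directions in primed ES cells, and in MEFs the values of all 6 lay between −0.43 and 0.07.

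Trp53 was at 196 and 198 CPM in naive P-bodies, which is under both cytoplasm libraries (log2 (FC) −1.11 ± 0.11, adjusted P = 0.00128). In primed P-bodies it was at 110.3 and 107 CPM (log2 (FC) −0.31 ± 0.07, adjusted P = 0.00169). It was thus depleted in both ES cell states. In MEF P-bodies it was at 90.9 and 102 CPM (log2 (FC) −0.20 ± 0.10, adjusted P = 0.132), and without MEF P-body replicate 2 the value was −0.30 and passed (adjusted P = 0.00629).

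Mdm2, the ligase, was at 284 and 286 CPM in naive P-bodies (log2 (FC) 0.76 ± 0.15, adjusted P = 0.0148). In primed P-bodies it was at 343 and 344 CPM (log2 (FC) 0.86 ± 0.05, adjusted P = 5.44e-08). Both pairs of P-body libraries were above both cytoplasm libraries, where fractions did not overlap for 73.4% of all genes in naive and 75.2% in primed cells. In MEF P-bodies it was at 255 and 308 CPM, on either side of the cytoplasm libraries (log2 (FC) 0.01 ± 0.11, adjusted P = 0.926). The naive call was lost without P-body replicate 1 or 2 (adjusted P = 0.109 and 0.11).

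Mdm4 showed the largest contrast between cell types. It was at 212 and 192 CPM in naive P-bodies (log2 (FC) 1.98 ± 0.11, adjusted P = 0.000414), a 3.94-fold enrichment. In primed P-bodies it was at 87.5 and 97.7 CPM (log2 (FC) 0.46 ± 0.08, adjusted P = 0.000481). In MEF P-bodies it was at 84.7 and 86.4 CPM and depleted (log2 (FC) −0.36 ± 0.09, adjusted P = 0.0087). The inhibitor of p53 was therefore enriched in P-bodies of ES cells and depleted from those of fibroblasts, although the MEF call was lost without cytoplasm replicate 1 or 2 (adjusted P = 0.0954 and 0.149).

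Cdkn1a was at 249 and 243 CPM in naive P-bodies (log2 (FC) 0.76 ± 0.18, adjusted P = 0.0237) and at 74.0 and 70.6 CPM in primed P-bodies (log2 (FC) 0.38 ± 0.08, adjusted P = 0.00178). In MEFs, where the gene was most abundant of these 3 cell types, its P-body libraries at 526 and 525 CPM overlapped those of the cytoplasm (log2 (FC) 0.05 ± 0.08, adjusted P = 0.639). The naive call was lost without P-body replicate 1 or 2 (adjusted P = 0.137 and 0.122). Exons of Cdkn1a overlap an antisense gene, AC167363.2, and the libraries did not mark strand, so reads from the 2 genes cannot be told apart.

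Ccng1 had the largest naive enrichment of the 6, with 608 and 579 CPM in P-bodies (log2 (FC) 2.1 ± 0.26, 4.3-fold, adjusted P = 0.00281). In primed P-bodies it reached 1050.1 and 1018 CPM (log2 (FC) 1.0 ± 0.05, adjusted P = 4.62e-09). Its P-body libraries were above the cytoplasm libraries in both ES cell states, where 73.4% (naive) and 75.2% (primed) of all genes did not overlap. In MEF P-bodies it was at 864 and 1136 CPM, which enclosed the cytoplasm libraries (log2 (FC) 0.07 ± 0.13, adjusted P = 0.681). Without MEF P-body replicate 1 the value was 0.28 (adjusted P = 0.00755), and without replicate 2 it was −0.16 (adjusted P = 0.105).

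Bbc3 was at 8.79 and 9.01 CPM in naive P-bodies (log2 (FC) −0.27 ± 0.22, adjusted P = 0.384) and at 37.8 and 42.5 CPM in primed P-bodies (log2 (FC) 0.22 ± 0.10, adjusted P = 0.0945). It was the sole gene of the 6 that was called in neither ES cell state, although without naive cytoplasm replicate 2 it passed at −0.41 (adjusted P = 0.0489). In MEF P-bodies it was at 11.8 and 12.7 CPM and depleted (log2 (FC) −0.43 ± 0.15, adjusted P = 0.0332). That call was lost with DESeq2 (adjusted P = 0.0945), with all groups fitted together (adjusted P = 0.0848), and without P-body replicate 1 or cytoplasm replicate 1 or 2 (adjusted P = 0.0521, 0.195 and 0.224).

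The counts were 5 of 6 in primed ES cells, where 50.7% of 16177 genes were called, and 2 of 6 in MEFs, where 55.3% of 16198 genes were called. The MEF share was thus under that of all genes. Other RNAs moved with the fractions as well. A list of 5 nuclear-retained RNAs, none of them at 0 in any of these libraries, summed to 984 to 1004 CPM in naive P-bodies against 311 to 367 CPM in the cytoplasm, with 3 higher and 1 lower of 5. In primed ES cells the sums went the other way, at 847 to 885 CPM in P-bodies against 889 to 1056 CPM in the cytoplasm, with 1 higher and 3 lower of 5. In MEFs the sums were 5471 to 7506 against 1328 to 1394 CPM, with 4 higher and 1 lower of 5. The part of these RNAs in the enrichment values was not tested. Without MEF P-body replicate 2, the library with most of the lung epithelial RNA, Mdm4 (−0.39, adjusted P = 0.00135) and Bbc3 (−0.50, adjusted P = 0.0111) kept their calls.

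**Figure D2:**
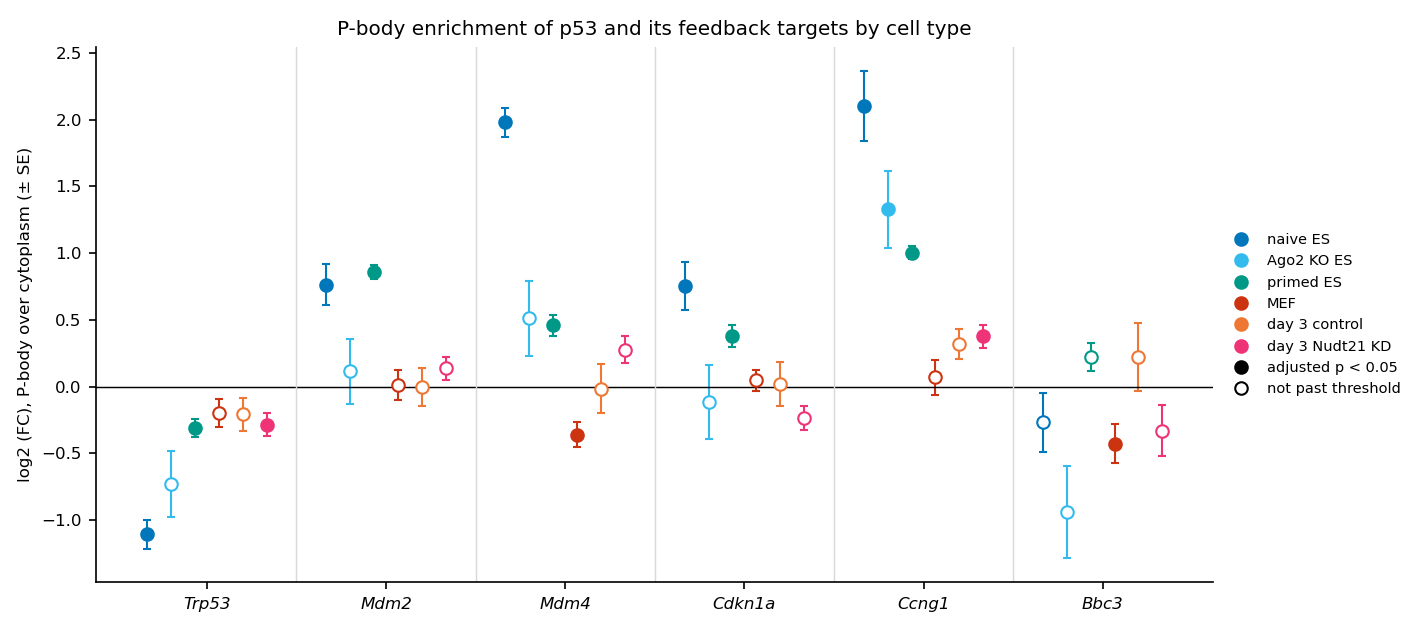
Log2 (FC) of P-body over cytoplasm with SE for each gene in 6 kinds of cells, where filled points passed an adjusted P of 0.05. Naive ES values run from −1.11 for Trp53 to 2.1 for Ccng1, and MEF values lie between −0.43 and 0.07.

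At day 3 of reprogramming none of the 6 genes was called for P-body enrichment in the control with edgeR or DESeq2. By edgeR 0.646% of 15786 genes were called and 3899 had an unadjusted P under 0.05, of the 6 Ccng1 alone, and DESeq2 called 2105 genes. The count of 102 genes was 8752 without P-body replicate 1, 4896 without P-body replicate 2 and 155 without cytoplasm replicate 1, so it rested on single libraries. The nuclear-retained list was at 1628 to 1839 CPM in these P-bodies and 1519 to 1548 CPM in the cytoplasm, with none of 5 called. Ccng1 was at 973 and 823 CPM in P-bodies (log2 (FC) 0.32 ± 0.11, adjusted P = 0.165), and Trp53 was at 219 and 232 CPM (log2 (FC) −0.21 ± 0.12, adjusted P = 0.352). The Trp53 and Ccng1 libraries did not overlap between the fractions, as was so for 58.5% of all genes. Mdm2 was at 435 and 316 CPM, Mdm4 at 49.4 and 33.7 CPM, Cdkn1a at 569 and 722 CPM and Bbc3 at 41.3 and 65.6 CPM, and each of these pairs enclosed or overlapped the cytoplasm pair. Without P-body replicate 2, Trp53 (−0.31), Mdm2 (0.16), Cdkn1a (−0.23) and Ccng1 (0.38) passed, and without replicate 1, Mdm2 (−0.19), Cdkn1a (0.23), Ccng1 (0.25) and Bbc3 (0.56) passed. Ccng1 was the sole gene that passed in the same direction both ways, and Mdm2 and Cdkn1a changed sign.

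With the Nudt21 knockdown, Trp53 was again lower in P-bodies, at 228 and 220.3 CPM (log2 (FC) −0.29 ± 0.09, adjusted P = 0.0369), and Ccng1 higher, at 819 and 754 CPM (log2 (FC) 0.38 ± 0.09, adjusted P = 0.0127). The count was 2 of 6, where 21.9% of 15995 genes were called. Over all genes 3501 were called, against 1128 and 1017 without knockdown cytoplasm replicate 1 and 2 and 5729 without knockdown P-body replicate 2. Mdm4, at 89.8 and 79.0 CPM, had a log2 (FC) of 0.28 ± 0.10 (adjusted P = 0.0783), Cdkn1a, at 474 and 529 CPM, −0.24 ± 0.09 (adjusted P = 0.0902), and Mdm2, at 415 and 408 CPM, 0.14 ± 0.08 (adjusted P = 0.28). Bbc3, at 15.9 and 24.2 CPM, had −0.33 ± 0.19 (adjusted P = 0.256). Both calls were lost with all groups fitted together (adjusted P = 0.079 for Trp53 and 0.164 for Ccng1). They were also lost without knockdown cytoplasm replicate 1 or 2 (adjusted P = 0.258 and 0.229 for Trp53, 0.182 and 0.0962 for Ccng1). The nuclear-retained list, summed, was at 794 to 816 CPM in these P-bodies and 1196 to 1233 CPM in the cytoplasm, with 4 of 5 lower. Without knockdown P-body replicate 2, Mdm4 (0.38), Cdkn1a (−0.30) and Bbc3 (−0.65) passed in addition, and Cdkn1a also passed with no filter on low counts (−0.23, adjusted P = 0.046).

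In Ago2 KO ES cells, which lack an Argonaute protein that carries microRNAs to their targets, Ccng1 was P-body-enriched. Its P-body libraries held 323 and 384 CPM and its cytoplasm libraries 125 and 157 CPM (log2 (FC) 1.33 ± 0.29, adjusted P = 0.0296). It was the 1 gene called of 6, where 6.51% of 16808 genes were called. That count of 1095 genes was 446 and 603 without P-body replicate 1 and 2, and 5617 and 2134 without cytoplasm replicate 1 and 2. Trp53 was at 85.9 and 83.4 CPM against 145 and 136 CPM (log2 (FC) −0.73 ± 0.25, adjusted P = 0.115). Mdm4 was at 76.0 and 72.1 CPM against 39.3 and 64.6 CPM (log2 (FC) 0.51 ± 0.28, adjusted P = 0.307). Bbc3 was at 2.66 and 4.68 CPM against 7.12 and 7.01 CPM (log2 (FC) −0.94 ± 0.35, adjusted P = 0.139), and rested on 42 and 83 reads in P-bodies. The fractions did not overlap for any of these 3 genes, as was so for 56% of all genes. None of the 3 passed, with a wide spread of the Mdm4 cytoplasm pair. Cdkn1a, with its 2 miR-294-3p seed matches, had 163 and 142 CPM in P-bodies against 190.1 and 141 CPM in cytoplasm (log2 (FC) −0.12 ± 0.28, adjusted P = 0.843). Mdm2 was at 47.1 and 61.9 CPM against 50.1 and 50.5 CPM (log2 (FC) 0.12 ± 0.24, adjusted P = 0.822). Both of these overlapped between fractions. The Ccng1 call was lost without P-body replicate 1 or 2 (adjusted P = 0.289 and 0.368). Trp53 passed with DESeq2 (−0.76, adjusted P = 0.044) and without cytoplasm replicate 1 or 2 (−0.80 and −0.81). With the replicate number as a block in edgeR, Trp53 (−0.73, adjusted P = 0.0155) and Bbc3 (−0.98, adjusted P = 0.00752) passed. Mdm4 passed without cytoplasm replicate 2 (0.88), and Bbc3 without cytoplasm replicate 1 (−1.04). In naive cells the values were 2.1 for Ccng1, 1.98 for Mdm4 and 0.76 for Cdkn1a. For the genes that held none of the heptamers they were 0.76 for Mdm2, −1.11 for Trp53 and −0.27 for Bbc3. The 2 tables were counted with different tools and annotations, so differences between naive and Ago2 KO cells were not tested for any gene. The nuclear-retained list was at 735 to 772 CPM in these P-bodies and 267 to 518 CPM in the cytoplasm, with 1 of 5 higher. Pseudogene copies of 2 of the genes, Trp53-ps and Mdm4-ps, have rows in this table alone, with 0 reads and with at most 3.02 reads, and reads from them cannot be told apart from the genes in the other tables.

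Whether enrichment itself differed between cell types was tested as an interaction over the 4 groups involved. Between naive and primed ES cells, the enrichment of Mdm4 was higher in naive cells by 1.38 ± 0.13 on the log2 scale (adjusted P = 0.000327) and that of Ccng1 by 0.96 ± 0.28 (adjusted P = 0.0334). The depletion of Trp53 was deeper, with a difference of −0.94 ± 0.12 (adjusted P = 0.00106). These were 3 of 6 genes, where 25.3% of 17199 genes were called. The median difference of all genes was −0.04, and it moved to 0.07 without the filter on low counts. Relative to the median of −0.04, the differences were 1.42 for Mdm4, 1.0 for Ccng1 and −0.89 for Trp53. Mdm2 (−0.24 ± 0.17, adjusted P = 0.365), Cdkn1a (0.24 ± 0.20, adjusted P = 0.429) and Bbc3 (−0.63 ± 0.22, adjusted P = 0.0648) did not pass. The Ccng1 call was lost without either naive P-body library, either primed P-body library or either primed cytoplasm library (adjusted P from 0.0813 to 0.113). It was kept without naive cytoplasm replicate 1, at a smaller difference of 0.62. Without naive cytoplasm replicate 1, Mdm2 (−0.43) and Cdkn1a (0.50) passed, and without naive cytoplasm replicate 2, Bbc3 (−0.79) did.

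Between naive ES cells and MEFs the same 3 genes differed, where 41.3% of 18143 genes were called. The difference was 2.15 ± 0.14 for Mdm4 (adjusted P = 9.13e-06), 1.84 ± 0.32 for Ccng1 (adjusted P = 0.00131) and −1.10 ± 0.16 for Trp53 (adjusted P = 0.000414). Both sets of differences share the naive libraries. The median difference of all genes was −0.17 here, and without the filter on low counts it moved to 0.07. Relative to the median of −0.17, the differences were 2.32 for Mdm4, 2.01 for Ccng1 and −0.93 for Trp53. Mdm2 (0.56 ± 0.22, adjusted P = 0.0678) and Cdkn1a (0.52 ± 0.20, adjusted P = 0.0592) stood just outside the threshold. They passed with DESeq2 (0.60 and 0.56), without the filter (0.81 and 0.77) and with all groups fitted together (0.80 and 0.75). Mdm2 also passed without naive cytoplasm replicate 2 or any 1 of the 4 MEF libraries (0.67 to 0.95). Cdkn1a passed without either naive cytoplasm library or any 1 of the 4 MEF libraries (0.31 to 0.77). Bbc3 had a difference of −0.03 ± 0.26 (adjusted P = 1). No gene of the 6 differed in enrichment between day 3 control cells and MEFs by edgeR or DESeq2, where 14.7% of 17488 genes were called by edgeR, 5249 had an unadjusted P under 0.05, none of the 6 among them, and DESeq2 called 3473. Bbc3 had the largest value, 0.69 ± 0.31 (adjusted P = 0.167), and passed without day 3 P-body replicate 1 (0.96) and without the filter on low counts (0.70, adjusted P = 0.0432). Mdm4, at 0.38 ± 0.20 (adjusted P = 0.234), passed without day 3 P-body replicate 2 (0.55). Between Nudt21 knockdown and control 0.0118% of 16973 genes were called, 819 had an unadjusted P under 0.05, none of the 6 among them, and none of the 6 was among the 26 genes called by DESeq2. Values ran from −0.52 ± 0.36 for Bbc3 to 0.32 ± 0.22 for Mdm4, and without control P-body replicate 1 Mdm4 (0.57), Cdkn1a (−0.43) and Bbc3 (−0.86) passed.

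**Figure D3:**
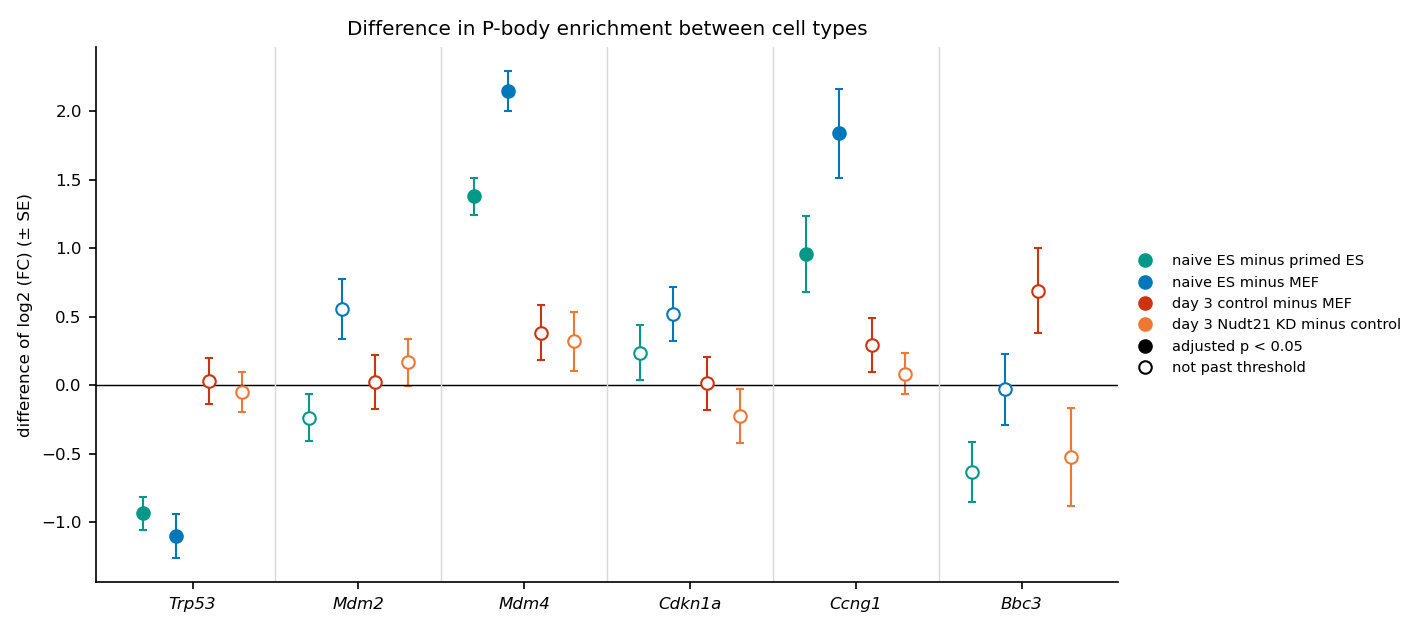
Difference in log2 P-body enrichment between cell types with SE, where filled points passed an adjusted P of 0.05. Mdm4 and Ccng1 lie above 0 and Trp53 below 0 in both naive contrasts, and the points of the day 3 contrasts are all open.

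The wider p53 pathway was read from 4 hand-written lists with 58 genes in all, none of them among the 6. Genes given as leading a comparison are the first among called genes with a mean of at least 10 CPM and, between 2 groups, no overlap of libraries. In naive ES cells 12 of the 58 were higher and 7 lower in P-bodies, with 39 not called. The share called, 32.8%, was under the 38% of all genes. Of 17 regulators of p53 5 were higher, none lower and 12 not called, where 22.6% of all genes were higher and 15.4% lower. Their median log2 (FC) was 0.29 against −0.06 over all genes tested. The 5 higher genes, named after their values were seen, were the damage kinase gene Atm (1.1), the checkpoint kinase gene Chek1 (1.52), Usp7 (0.50), Ep300 (0.44) and Sirt1 (0.76). The leading genes were targets. Polk, a DNA polymerase of damage bypass, was at a mean of 994 CPM in P-bodies and 43.6 CPM in cytoplasm (log2 (FC) 4.51 ± 0.70, adjusted P = 0.00605). Eda2r, a death receptor, had 3.26 ± 0.31 (adjusted P = 0.00118), and Trp53inp1, a cofactor of p53, 2.67 ± 0.34 (adjusted P = 0.00311). Other targets, also named after their values were seen, were lower, with Sfn at −1.58 and Gdf15 at −1.1 among 12 arrest genes, of which 3 were higher and 3 lower. Of 16 apoptosis genes 2 were higher and 1 lower, and of 13 repair and metabolism genes 2 were higher and 3 lower.

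In primed ES cells 18 of the 58 were higher and 18 lower in P-bodies, 62.1% against 50.7% of all genes. Polk led again (2.43 ± 0.05, adjusted P = 3.08e-11), followed by Pltp, a lipid transfer gene that was lower (−1.51 ± 0.08, adjusted P = 9.85e-09), and Hipk2, a p53 kinase (1.46 ± 0.19, adjusted P = 3.41e-05). In MEFs 12 were higher and 23 lower of 57 tested, 61.4% against 55.3% of all genes. Of 12 arrest genes 7 were lower and 1 higher, where 28.7% of all genes were lower and 26.6% higher, with a median of −0.37 against 0.03 over all genes. The leading genes in MEFs were Pmaip1 (Noxa, −1.88 ± 0.12, adjusted P = 4.57e-06), Apaf1 of the apoptosome (−1.59 ± 0.17, adjusted P = 5.48e-05) and the stress gene Sesn2 (−1.54 ± 0.11, adjusted P = 6.24e-06). Day 3 control cells had 1 of 58 called, Hipk2 (−1.41 ± 0.18, adjusted P = 0.0495), where DESeq2 called 3 higher and 7 lower. With the Nudt21 knockdown 4 were higher and 10 lower, 24.1% against 21.9% of all genes, led by the regulators Hipk2 (−1.62), Cop1 (−1.17) and Ep300 (−1.13). In Ago2 KO cells 5 were higher and 2 lower of 56, 12.5% against 6.51% of all genes, with Polk (2.43 ± 0.25, adjusted P = 0.00211), Eda2r (1.54 ± 0.26, adjusted P = 0.00971) and Apaf1 (−1.43 ± 0.32, adjusted P = 0.0335) at the head.

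**Figure D4:**
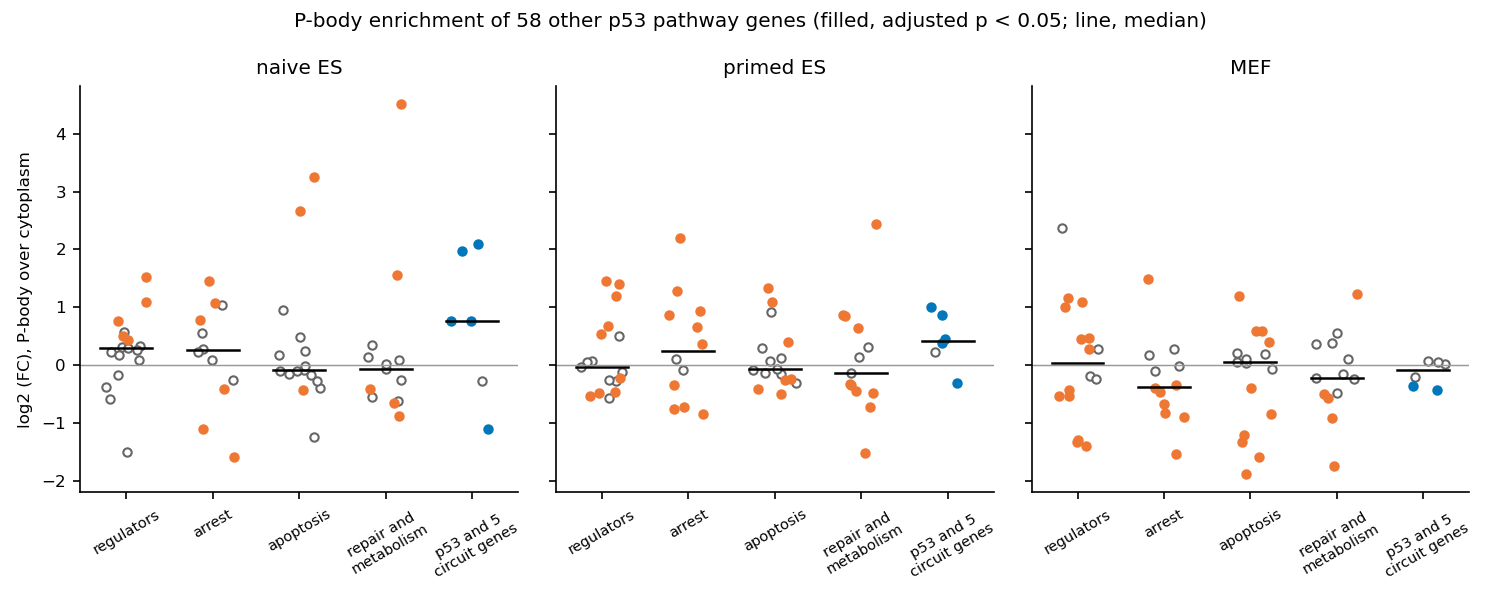
Log2 (FC) of P-body over cytoplasm of 58 other p53 pathway genes in 4 lists, and of the 6 genes, in naive ES cells, primed ES cells and MEFs (57 others in MEFs). Filled points passed an adjusted P of 0.05, and lines are medians. The regulators' median is 0.29 in naive ES cells and the arrest genes' median is −0.37 in MEFs.

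The difference in enrichment between naive ES cells and MEFs was called for 30 of the 58 genes, 20 higher and 10 lower in naive cells and 51.7% against 41.3% of all genes, led by Polk (4.53 ± 0.68), Eda2r (3.01 ± 0.31) and Trp53inp1 (2.88 ± 0.37). Against primed cells 8 were higher and 5 lower, 22.4% against 25.3% of all genes, among them Eda2r (1.78 ± 0.30), Dcxr (−1.61 ± 0.29) and Trp53inp1 (1.44 ± 0.35). Between day 3 control cells and MEFs 12 were higher and 5 lower, 29.3% against 14.7% of all genes, led by Pmaip1 (1.97 ± 0.20), Cop1 (−1.86 ± 0.39) and Abat (1.2 ± 0.29). Between Nudt21 knockdown and control none of the 58 was called by edgeR, where 3 had an unadjusted P under 0.05, and none by DESeq2, which gave 46 of them an adjusted P.

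In the cytoplasm itself, 9 of the 58 genes were higher and 11 lower in naive than in primed cells, 34.5% against 43.8% of all genes, with Pmaip1 (−3.04), Gdf15 (2.91) and Eda2r (−2.81) furthest apart. Against MEFs 22 were higher and 19 lower in naive cells, 70.7% against 71.8% of all genes, led by Tnfrsf23 (−6.53), Gls2 (4.95) and Eda2r (−3.75). At day 3 36 were higher and 13 lower than in MEFs, where 35.5% of all genes were higher and 33.7% lower. More genes were higher than lower in each of the 4 lists, with 13 of 17 regulators, 7 of 12 arrest genes, 8 of 16 apoptosis genes and 8 of 13 repair and metabolism genes higher, and the medians were 0.40 to 0.65 against 0.04 over all genes. Perp (6.87), Tnfrsf23 (−4.19) and Fas (2.43) were at the head. With the Nudt21 knockdown 19 were higher and 15 lower than in the control, 58.6% against 49.6% of all genes, led by Abat (−1.87), Tigar (1.63) and Gdf15 (1.47).

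Over the 20 P-body and cytoplasm libraries, the genes whose log2 CPM followed each of the 6 most closely were sought among 10260 genes with a mean of at least 10 CPM. Trp53 was followed by Cops7a (Pearson r = 0.963), Sfrp1 (0.946) and Ppp2r1a (0.943). Ccng1 was followed by another p53 target, Trp53inp1 (0.961), and by Mbnl2 (0.96) and 2610002M06Rik (0.954). Cdkn1a was followed by Tbx18 (0.984), Csgalnact1 (0.975) and Trim16 (0.973), and Mdm4 by Zzz3 (0.942), Ireb2 (0.938) and Zdhhc17 (0.927). Mdm2 was followed by Mtpap (0.935), Spata6 (0.921) and Fam111a (0.913), and Bbc3 less closely by Zbed3 (0.891), Cdkn1c (0.868) and Afap1l2 (0.853). Among the 6 genes themselves the highest r was 0.728, between Mdm2 and Ccng1, and the lowest was −0.679, between Trp53 and Ccng1. These libraries fall into 5 kinds of cells with 4 libraries each, so the values describe those cells.

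Ribosome occupancy was measured in ES cells as polysome-bound over total RNA. In control cells Trp53 had low occupancy, and Mdm4, Ccng1 and Mdm2 had high occupancy. Trp53 was at 437, 446 and 464 CPM in total RNA and at 272, 265 and 255 CPM in polysomes (log2 (FC) −0.77 ± 0.06, adjusted P = 2.15e-08). Mdm4 was at 395, 369 and 308 CPM in total RNA and at 551, 549.6 and 513 CPM in polysomes (log2 (FC) 0.59 ± 0.08, adjusted P = 1.14e-05). The 2 groups did not overlap for either gene, in opposite directions, where 51.6% of all genes did not overlap. Ccng1 was at 369.9, 349 and 315 CPM against 434, 470.3 and 448 CPM (log2 (FC) 0.38 ± 0.07, adjusted P = 0.000174). Mdm2 was at 185, 187 and 156 CPM against 217, 213 and 216 CPM (log2 (FC) 0.28 ± 0.07, adjusted P = 0.00354). For both genes the third total RNA library was the lowest. Cdkn1a was at 321, 316 and 355 CPM in total RNA and 360.1, 370.5 and 359 CPM in polysomes (log2 (FC) 0.13 ± 0.06, adjusted P = 0.11). Bbc3 was at 33.1, 33.1 and 40.2 CPM against 37.3, 38.1 and 35.4 CPM (log2 (FC) 0.06 ± 0.08, adjusted P = 0.607). The count was 4 of 6, where 42.9% of 15411 genes were called. Without total RNA replicate 3, Cdkn1a (0.19) and Bbc3 (0.16) passed as well, and Cdkn1a passed with all groups fitted together (adjusted P = 0.0401).

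The same 4 genes were called in DDX6 degron cells, where 50.9% of 15638 genes were called. Trp53 was at 419, 414 and 409 CPM in total RNA and 261, 249 and 249 CPM in polysomes (log2 (FC) −0.71 ± 0.04, adjusted P = 9.94e-13). Mdm4 was at 267, 256 and 284 CPM against 442, 494 and 494 CPM (log2 (FC) 0.82 ± 0.05, adjusted P = 2.05e-12). Mdm4 thus had the highest occupancy of the 6 in control and in degron cells. The nuclear-retained list was at 660 to 756 CPM in degron polysomes against 503 to 588 CPM in total RNA, with 4 of 5 higher. In control cells it was at 617 to 699 CPM against 521 to 637 CPM, with 2 of 5 higher, and the part of these RNAs in the occupancy values was not tested. Ccng1 was at 298, 294 and 312 CPM against 407, 422 and 424 CPM (log2 (FC) 0.47 ± 0.04, adjusted P = 2.34e-09), and Mdm2 at 151, 151 and 153 CPM against 189, 196 and 195 CPM (log2 (FC) 0.35 ± 0.04, adjusted P = 2.2e-07). Cdkn1a was at 338, 369 and 346 CPM against 369, 392 and 372 CPM (log2 (FC) 0.11 ± 0.04, adjusted P = 0.0537). Bbc3 was at 37.3, 38.7 and 35.7 CPM against 35.5, 34.8 and 30.2 CPM (log2 (FC) −0.14 ± 0.06, adjusted P = 0.0666). Cdkn1a passed with DESeq2 (adjusted P = 0.0429), with either other filter (adjusted P = 0.0352 and 0.0412) and without polysome replicate 1 or total RNA replicate 2 (adjusted P = 0.0321 and 0.016). Bbc3 passed without polysome replicate 1 or total RNA replicate 3 (adjusted P = 0.0395 and 0.0451).

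**Figure D5:**
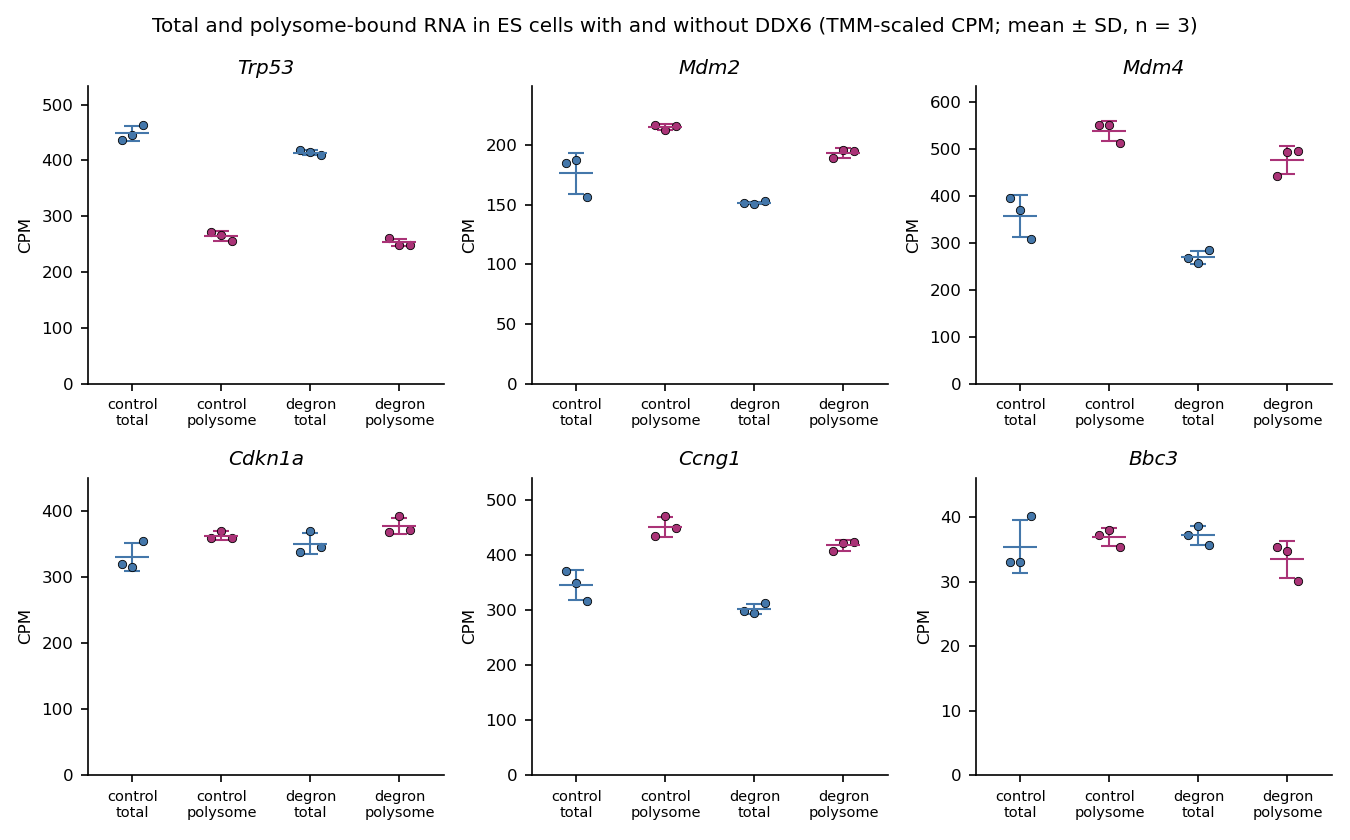
TMM-scaled CPM of each gene in total and polysome-bound RNA of control and DDX6 degron ES cells, with the 3 libraries as points and the mean and SD as bars on axes that start at 0. Trp53 is lower and Mdm4 higher in polysomes than in total RNA in both kinds of cells.

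Set side by side, log2 (FC) in naive P-bodies and control polysomes was −1.11 and −0.77 for Trp53 and 0.76 and 0.28 for Mdm2. It was 1.98 and 0.59 for Mdm4, 2.1 and 0.38 for Ccng1, 0.76 and 0.13 for Cdkn1a and −0.27 and 0.06 for Bbc3. Cdkn1a was not called in polysomes, and Bbc3 was called in neither. These values come from separate libraries and count tables. The share of all genes with the same sign in both was not counted, so no result is drawn from the signs. The regulators of p53 differed in sign, with medians of 0.29 in naive P-bodies and −0.33 in control polysomes. For mouse ES cells the paper reports a strong inverse correlation of P-body enrichment with translation efficiency, taken from published ribosome profiling. The genes followed here are too few to test that correlation. Of the other 58 pathway genes 14 had high and 20 low occupancy in control cells, 58.6% against 42.9% of all genes. Of 17 regulators 10 were low and 3 high, with a median of −0.33 against 0.02 over all genes. Of 16 apoptosis genes 8 were high and 1 low, with 7 not called and a median of 0.24, where 18.8% of all genes were high and 24.1% low. Trp53bp1 (−1.13 ± 0.08, adjusted P = 7.1e-09), Apaf1 (−1.03 ± 0.07, adjusted P = 2.91e-09) and Gtse1 (−1.02 ± 0.06, adjusted P = 1.34e-09) led. In degron cells 15 were high and 20 low, 60.3% against 50.9% of all genes, with the same genes in the lead, Trp53bp1 (−1.10), Gtse1 (−1.07) and Apaf1 (−0.98).

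Degron and control cells were then compared within each kind of RNA, and 1 of the 6 genes was called in each. In total RNA Mdm4 was lower in degron cells (log2 (FC) −0.42 ± 0.08, adjusted P = 0.0145), and it was the 1 gene called of 6, where 3.31% of 15380 genes were called. That count of 509 genes was 6, 68 and 145 without degron replicate 1, 2 and 3, 86 and 80 without control replicate 1 and 2, and 3373 without control replicate 3. Mdm2 (−0.23 ± 0.07) and Ccng1 (−0.20 ± 0.06) did not pass (adjusted P = 0.0788 for each), and neither did Trp53 (−0.13 ± 0.05, adjusted P = 0.181), Cdkn1a (0.08 ± 0.06, adjusted P = 0.507) or Bbc3 (0.06 ± 0.09, adjusted P = 0.726). The call for Mdm4 was lost without degron replicate 1 or 2 (adjusted P = 0.132 and 0.0825) and without control replicate 1 or 2 (adjusted P = 0.0661 and 0.0702). Without control replicate 3, the low library of Mdm2, Mdm4 and Ccng1, Mdm2 (−0.30), Ccng1 (−0.26) and Cdkn1a (0.14) passed. Mdm2 and Ccng1 also passed with DESeq2 (adjusted P = 0.026 and 0.0286), without the filter and with all groups fitted together. In polysomes Mdm2 was lower (log2 (FC) −0.15 ± 0.04, adjusted P = 0.0489), the 1 gene called of 6, where 4.26% of 15625 genes were called, and the call was lost without any of 5 of the 6 libraries (adjusted P from 0.109 to 0.169) and kept without control replicate 3. The count of 666 genes ran from 179 to 395 without each of those 5 libraries. It was also lost with all groups fitted together (adjusted P = 0.181). Mdm4 had −0.17 ± 0.05 (adjusted P = 0.079) and passed with DESeq2 (adjusted P = 0.0193), without the filter (adjusted P = 0.0269) and without control replicate 3 (adjusted P = 0.0155). Ccng1 (−0.11 ± 0.04), Bbc3 (−0.14 ± 0.06), Trp53 (−0.06 ± 0.04) and Cdkn1a (0.06 ± 0.04) did not pass (adjusted P from 0.203 to 0.514).

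Occupancy itself did not differ detectably between degron and control cells for any of the 6 genes. By edgeR 0% of 16345 genes were called and 844 had an unadjusted P under 0.05, and DESeq2 called 4 genes, none of them among the 6. Of the 6, Mdm4 alone had an unadjusted P under 0.05. The largest differences were 0.24 ± 0.10 for Mdm4 and −0.21 ± 0.11 for Bbc3 (adjusted P = 0.879 for each). Trp53 (0.05 ± 0.07), Mdm2 (0.06 ± 0.08), Ccng1 (0.08 ± 0.08) and Cdkn1a (−0.03 ± 0.07) were smaller. For P-body-associated mRNAs taken as a set, the paper reports significantly higher ribosome occupancy after DDX6 loss. Tests of single genes do not address such a shift of a whole set. Of the 58 pathway genes none was called for a difference in occupancy by edgeR, where 7 had an unadjusted P under 0.05, or by DESeq2. In total RNA 2 were higher and 5 lower (3 and 8 by DESeq2), 12.1% against 3.31% of all genes, among them Pmaip1 (−0.56 ± 0.09), Zmat3 (−0.53 ± 0.05) and Eda2r (−0.50 ± 0.08). In polysomes 2 were higher and 8 lower, 17.2% against 4.26% of all genes, with Sfn (0.36 ± 0.06), Plk3 (0.34 ± 0.05) and Ak1 (−0.29 ± 0.04) furthest from 0.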

How the data were processed

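RNA of sorted P-bodies, cytoplasm, polysomes and total lysate was read from 3 tables. Per the labels and the study's methods, the authors aligned the P-body and cytoplasm reads with HISAT2 to mm10 and counted refGene exons with featureCounts, and they quantified the polysome and total RNA reads with salmon on mm10 refGene. How the salmon table of the Ago2 KO fractions was run is not given in the sources used here. The deposited values are expected counts, part of them not whole, and were rounded here. The 6 genes and all gene lists were chosen with earlier results of these data known.

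A gene entered a fit when its libraries together held 10 or more reads, and was tested with edgeR 4.0.16 (R 4.3.3, quasi-likelihood test, TMM factors) on the groups of the comparison alone. A call is a Benjamini-Hochberg adjusted P under 0.05 over all genes tested, two-sided. The SE is the log2 (FC) over the square root of F. Enrichment and occupancy differences were interaction contrasts over 4 groups. Levels are CPM with TMM factors over all libraries of a table, per kilobase of the longest coding transcript where genes were compared, so precision follows the total count. Named pathway genes were the 3 with the largest absolute log2 (FC) among called genes of the lists with a mean of at least 10 CPM and groups that do not overlap, and like genes the 3 with the highest Pearson r over the 20 fraction libraries. Alternatives were DESeq2 1.42.0, its size factors, other filters, a replicate block, all groups in 1 fit and leaving out each library. The tests were checked on simulated counts with known changes.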

Additional observations from a re-analysis of the deposited data

Results flagged for a closer look

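For 3 of the 6 genes P-body enrichment differed between cell types by an interaction test in edgeR. Between naive and primed ES cells the difference in log2 enrichment was −0.94 for Trp53, 1.38 for Mdm4 and 0.96 for Ccng1 (adjusted P = 0.00106, 0.000327 and 0.0334). Between naive ES cells and MEFs it was −1.10 for Trp53, 2.15 for Mdm4 and 1.84 for Ccng1 (adjusted P = 0.000414, 9.13e-06 and 0.00131). Both sets share the naive libraries. The Ccng1 difference between naive and primed cells was lost without any 1 of 6 of the 8 libraries (adjusted P from 0.0813 to 0.113) and fell to 0.62 without naive cytoplasm replicate 1. No group had enough libraries for a test of single libraries that stand apart.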

How the results depend on the processing

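Of 114 values of the 6 genes over 19 comparisons 52 were called, and all 52 kept their direction under each alternative run. Over 1326 alternative values 52 lost a call, 77 gained one and 53, none of them called in the main test, changed sign. Of the 77, 2 had also changed sign, Mdm2 and Cdkn1a enrichment in day 3 control cells without P-body replicate 2 (0.16 and −0.23, adjusted P = 0.0322 and 0.000348). Of the 52 calls 36 held under all alternatives and 42 under all that keep every library. A library left alone in its group by a leave-out was assumed to vary like the other groups. The causes of the changes were not tested.

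The number of the 6 genes called moved from 2 to 1 with DESeq2 and with all groups for MEF enrichment, and from 2 to 0 with all groups for enrichment with the Nudt21 knockdown. For Ago2 KO enrichment it moved from 1 to 2 with DESeq2. For total RNA in degron cells it moved from 1 to 3 with DESeq2, no filter and all groups, and for polysome RNA from 1 to 2 with DESeq2 and no filter and to 0 with all groups. For the cytoplasm with the Nudt21 knockdown it moved from 4 to 2 with all groups, for the naive and MEF enrichment difference from 3 to 5 with DESeq2, no filter and all groups, and for the day 3 and MEF difference from 0 to 1 with no filter.

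The methods mention a corresponding cytoplasm fraction for the sorted P-bodies, but the labels do not tie replicate numbers across fractions. Samples with the same number correlated by −0.25 to 0.54, with 0.54 in the Ago2 KO fractions. In the 3-replicate groups samples did not all correlate best with their own number, so the numbers were not shown to pair the samples throughout. With the replicate block the number called moved from 1 to 3 for Ago2 KO enrichment, from 1 to 0 for total RNA and for polysome RNA in degron cells, and from 3 to 5 for the naive and MEF difference. Calls lost with the block were Mdm4 in naive against primed cytoplasm, Mdm4 in total RNA and Mdm2 in polysomes of degron cells (adjusted P = 0.117, 0.0549 and 0.0577). Calls gained were Trp53 and Bbc3 enrichment in Ago2 KO cells (adjusted P = 0.0155 and 0.00752), Cdkn1a enrichment with the knockdown (0.0451), Cdkn1a and Bbc3 occupancy in degron cells (0.0292 and 0.0326), and Mdm2 and Cdkn1a in the naive and MEF difference (0.0477 and 0.0462). Over all genes the block moved the count from 102 to 802 in day 3 control P-bodies, from 1095 to 4178 in Ago2 KO P-bodies, from 509 to 82 in total RNA of degron cells, from 2 to 1 for the knockdown difference in enrichment and from 0 to 6 for the occupancy difference.

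Without single libraries the number of the 6 genes called ranged from 3 to 6 in naive ES cells, 5 to 5 in primed ES cells, 0 to 3 in MEFs, 0 to 4 in day 3 control cells, 0 to 5 with the Nudt21 knockdown and 0 to 3 in Ago2 KO cells. It ranged from 4 to 6 for occupancy in control and in degron cells, 0 to 4 for total RNA and 0 to 2 for polysome RNA. For the cytoplasm it ranged from 4 to 6 against primed cells and against MEFs, 6 to 6 for day 3 and 3 to 4 for the knockdown. For differences in enrichment it ranged from 2 to 5 for naive against primed, 3 to 5 for naive against MEF, 0 to 1 for day 3 against MEF and 0 to 3 for the knockdown, and from 0 to 0 for occupancy.

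Values that changed sign with all libraries kept were these. Mdm2 enrichment was −0.032 in MEFs with all groups, and in day 3 control cells 0.0059 with DESeq2, 0.0058 with its size factors and 0.0022 with filterByExpr. Cdkn1a enrichment in day 3 control cells was −0.036 with all groups. The Bbc3 difference between naive ES cells and MEFs was 0.0060 with DESeq2 and with its size factors, 0.22 with no filter and 0.20 with all groups. For day 3 against MEF with all groups, Trp53 was −0.014, Mdm2 −0.011 and Cdkn1a −0.039, and Cdkn1a was −0.0046 with DESeq2 and its size factors and −0.0033 with the replicate block.

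Without single libraries enrichment in MEFs ran from −0.15 to 0.17 for Mdm2 and from −0.16 to 0.28 for Ccng1. In day 3 control cells it ran from −0.19 to 0.16 for Mdm2, −0.25 to 0.18 for Mdm4, −0.23 to 0.23 for Cdkn1a and −0.22 to 0.56 for Bbc3, and in Ago2 KO cells from −0.092 to 0.30 for Mdm2 and −0.35 to 0.0067 for Cdkn1a. Cytoplasm values ran from −0.40 to 0.020 for Mdm2 in naive against primed cells, and with the knockdown from −0.054 to 0.076 for Trp53 and −0.11 to 0.0015 for Mdm2. Differences in enrichment ran from −0.18 to 0.27 for Bbc3 in naive against MEF. They ran from −0.10 to 0.14 for Trp53, −0.23 to 0.19 for Mdm2 and −0.26 to 0.15 for Cdkn1a in day 3 against MEF. With the knockdown they ran from −0.14 to 0.042 for Trp53, −0.0022 to 0.36 for Mdm2, −0.43 to 0.013 for Cdkn1a and −0.016 to 0.18 for Ccng1. The occupancy difference of Cdkn1a ran from −0.084 to 0.0079.

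Over all genes the count of calls moved from 8209 to 5128 in primed P-bodies, 3501 to 2100 in knockdown P-bodies and 7934 to 4877 in knockdown cytoplasm with all groups. In day 3 control P-bodies it moved from 102 to 2105 with DESeq2, 202 with filterByExpr, 1940 with no filter and 3308 with all groups. In Ago2 KO P-bodies it moved from 1095 to 1731 with DESeq2, 716 with its size factors and 2643 with no filter. In degron cells it moved from 509 to 832 with DESeq2, 863 with no filter and 1138 with all groups for total RNA, and from 666 to 1029 with no filter and 362 with all groups for polysome RNA. For the knockdown difference it moved from 2 to 26 with DESeq2 and 62 with no filter, and for the occupancy difference from 0 to 4 with DESeq2 and 16 with no filter. The split into higher and lower calls moved from 2389 and 1960 to 2836 and 1467 with no filter for naive against primed, and from 3895 and 3598 to 4711 and 2852 for naive against MEF. It moved from 1677 and 898 to 1866 and 1545 with all groups for day 3 against MEF, from 919 and 176 to 1762 and 881 with no filter in Ago2 KO P-bodies, and from 31 and 71 to 939 and 1166 with DESeq2 in day 3 control P-bodies. Without single libraries the count over all genes ran from 5595 to 9976 in MEF P-bodies (8955 with all; 5595 without cytoplasm replicate 1), 2293 to 7089 for naive against primed enrichment (4349), 259 to 5546 for day 3 against MEF (2575), 0 to 2185 for the knockdown difference (2; 2185 without control P-body replicate 1) and 0 to 52 for the occupancy difference (0; 52 without control total RNA replicate 3). Bbc3 had the least depth, with 42 and 83 reads in Ago2 KO P-bodies. It held 83 and 100 reads in naive P-bodies and 153 and 123 in the naive cytoplasm.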
